A study of Homo sapiens with 6 samples.

Results

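The ERK pathway feedback genes are 10 genes that cells switch on when the RAS-RAF-MEK-ERK signalling cascade is active and whose products, for the most part, hold that cascade back. They are 3 dual specificity phosphatases (DUSP4, DUSP5 and DUSP6), 3 Sprouty genes (SPRY1, SPRY2 and SPRY4), 2 SPRED genes (SPRED1 and SPRED2) and 2 ETS transcription factors of the PEA3 group (ETV4 and ETV5). They were taken by symbol, from a list drawn up with earlier results of these data known, and all 10 were found among the 61498 genes of the deposited tables. RPMI-8226-R, a derivative of RPMI-8226 that is resistant to the proteasome inhibitor bortezomib, was set against RPMI-8226, a myeloma cell line, and both were set against NCI-BL2171, labelled as a line of B lymphocytes. All cells were untreated, all carry the cell type label B-lymphocytes, and RNA was sequenced after removal of ribosomal RNA in 2 libraries per line. The labels do not say how the resistant line was selected, whether it is a clone, or whether a line's 2 libraries stem from different cultures; the p-values then reflect library-to-library spread alone, possibly technical.

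In the ERK cascade, a growth factor receptor loads RAS with GTP, RAS recruits RAF kinases, RAF phosphorylates MEK, and MEK phosphorylates ERK. Active ERK enters the nucleus and drives transcription of a set of genes that limit it: nuclear and cytoplasmic DUSP phosphatases remove the phosphates from ERK itself, Sprouty proteins block the path between receptor and RAF, and SPRED proteins bring the RAS inactivator neurofibromin to the membrane. ETV4 and ETV5 are transcription factors induced by the same signal, and the transcripts of these genes are widely used as a readout of how much signal flows through the cascade.

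The 6 libraries held between 23952370 and 29052199 estimated reads, and within a line log2 CPM correlated between libraries at 0.996 to 0.997 (Pearson, across genes, which are no independent replicates). Plasma cell markers were at 1 TPM (transcripts scaled to gene length and library size) or more for 7 of 7 genes in both RPMI lines, with summed levels of 4443 and 4570 TPM in RPMI-8226-R and of 3093 and 3231 TPM in RPMI-8226. The libraries labelled NCI-BL2171 went against their label. Their plasma cell markers summed to 47.9 and 50.5 TPM, with IRF4, TNFRSF17, MZB1 and JCHAIN at 0 reads, and of 7 B cell markers MS4A1 and PAX5 were at 0 reads. All 8 erythroid markers were at 1 TPM or more there and summed to 50359 and 48342 TPM, against 159 and 175 TPM in RPMI-8226-R and 52.8 and 54.1 TPM in RPMI-8226. B cell markers summed to 134 and 140 TPM in RPMI-8226-R, where MS4A1 and CD22 had 0 reads, and to 5446 and 5606 TPM in RPMI-8226, nearly all of it CD74. PAX5 went the other way between these lines, with 122 reads over the RPMI-8226-R libraries and 44 over RPMI-8226. The part of these marker differences in the results that follow was not tested, and in bulk RNA a change in the kind of cell and a change in RNA per cell cannot be told apart.

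RPMI-8226-R held less RNA of most feedback genes than RPMI-8226. Levels are given as TMM-normalised CPM (reads scaled to library size), and a gene is called where the adjusted p (edgeR quasi-likelihood test, Benjamini-Hochberg over 20081 tested genes) was under 0.05. Of the 10 genes, 6 fell (DUSP4, DUSP5, DUSP6, SPRY1, SPRY4 and ETV5), 2 rose (SPRED1 and SPRED2) and 2 did not pass the test (SPRY2 and ETV4). SPRED2 was called lower instead on the TPM scale and with a length offset. Calls were common in this comparison: 65.6% of all tested genes were called, 37.2% lower and 28.5% higher, so the number of calls is close to the background. The libraries of RPMI-8226-R and RPMI-8226 did not overlap in CPM for 8 of the 10 genes, beside 80.6% of all tested genes. The median log2 fold change of the 10 genes was -1.23, beside -0.12 for all tested genes. In both comparisons with NCI-BL2171 the background was higher still, at 77.4% of tested genes called for RPMI-8226-R (39.2% higher, 38.2% lower) and 76.7% for RPMI-8226 (41.1% higher, 35.6% lower). The 3 comparisons share their libraries and are not independent of each other.

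**Figure D1:**
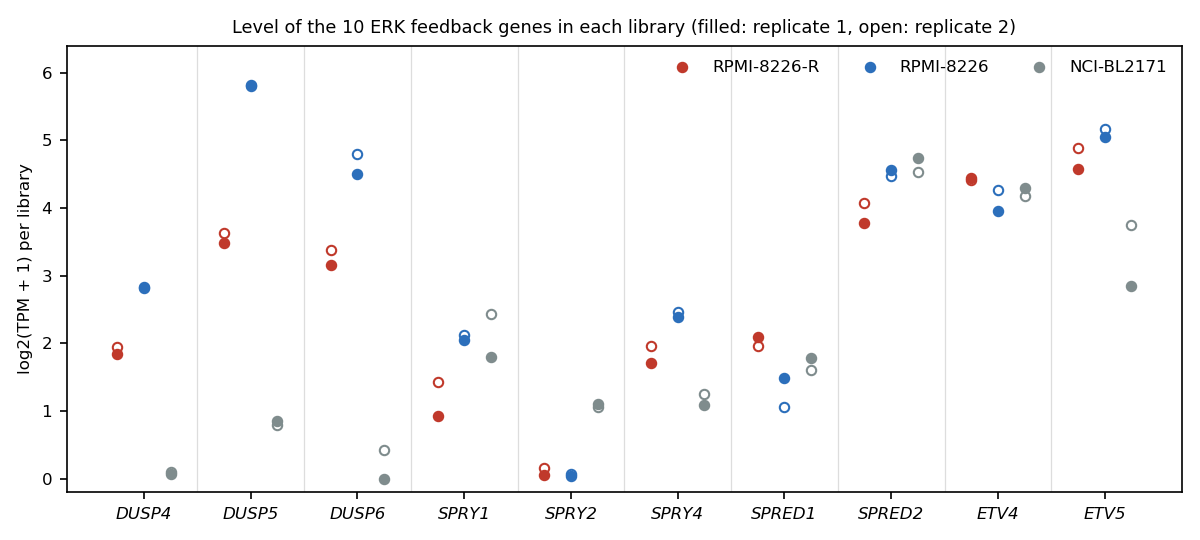
Level of each of the 10 genes as log2(TPM + 1), per library, in RPMI-8226-R, RPMI-8226 and NCI-BL2171 from left to right within each gene. The 3 DUSP genes sit lowest in NCI-BL2171 and highest in RPMI-8226, and SPRY2 is near 0 in the 4 RPMI libraries. ETV4 lies between 14.4 and 20.8 TPM in all 6 libraries and is highest in RPMI-8226-R.

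The 3 phosphatases showed the widest range between lines. DUSP5, a nuclear phosphatase that dephosphorylates and anchors ERK (ENSG00000138166.6, chromosome 10, 110497838 to 110511544, plus strand, GRCh38), was at 23.3 and 24.7 CPM in the RPMI-8226-R libraries, at 160 and 164 CPM in RPMI-8226 and at 2.06 and 1.81 CPM in NCI-BL2171. The 3 lines did not overlap, and the RPMI-8226-R libraries lay far below RPMI-8226 yet above NCI-BL2171. DUSP5 was 6.75-fold lower in RPMI-8226-R than in RPMI-8226 (log2 fold change -2.76 ± 0.08 SE, adjusted p = 2.89e-17), and 9.21% of all tested genes had a lower log2 fold change in this comparison. Against NCI-BL2171 its log2 fold change was 3.63 ± 0.12 in RPMI-8226-R and 6.38 ± 0.11 in RPMI-8226 (adjusted p = 7.08e-17 and 1.05e-21, edgeR).

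DUSP6, the cytoplasmic phosphatase that is specific for ERK (ENSG00000139318.8, chromosome 12, 89347232 to 89353271, minus strand), was at 15.1 and 18.8 CPM in RPMI-8226-R and at 55.1 and 63.7 CPM in RPMI-8226. The NCI-BL2171 libraries held 0 and 10 reads of it, so they barely detected it at this depth. DUSP6 was 3.50-fold lower in RPMI-8226-R than in RPMI-8226 (log2 fold change -1.81 ± 0.21, adjusted p = 0.000148, edgeR). That call was lost with DESeq2 (-1.76, adjusted p = 0.248) and with limma-trend on log2(TPM + 0.1) (-1.47, adjusted p = 0.106). With only the 4 RPMI libraries in the edgeR fit the adjusted p was 2.6e-09. Its log2 fold change over NCI-BL2171 was 6.43 ± 0.46 in RPMI-8226-R and 8.24 ± 0.40 in RPMI-8226, but these sizes rest on the 10 reads of NCI-BL2171 replicate 2: without that library the other holds 0 reads and the fitted values of 11.8 and 13.6 are no measure of size.

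DUSP4, a nuclear phosphatase that acts on ERK and JNK (ENSG00000120875.9, chromosome 8, 29333064 to 29350668, minus strand), was at 13.8 and 14.2 CPM in RPMI-8226-R, at 34.9 and 37.2 CPM in RPMI-8226 and at 0.294 and 0.403 CPM in NCI-BL2171, the last from 8 and 10 reads. Here too no line overlapped another. DUSP4 was 2.57-fold lower in RPMI-8226-R than in RPMI-8226 (log2 fold change -1.36 ± 0.11, adjusted p = 9.56e-10), and its log2 fold change over NCI-BL2171 was 5.32 ± 0.21 in RPMI-8226-R and 6.68 ± 0.20 in RPMI-8226 (adjusted p = 1.66e-15 and 7.54e-18, edgeR). Summed over the 3 phosphatases, the level was 52.2 and 57.7 CPM in RPMI-8226-R, 250.1 and 265 CPM in RPMI-8226 and 2.35 and 2.62 CPM in NCI-BL2171.

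The Sprouty genes differed among themselves. SPRY4, which blocks RAS activation downstream of receptors (ENSG00000187678.10, chromosome 5, 142310427 to 142326455, minus strand), followed the phosphatases, with 10.6 and 12.7 CPM in RPMI-8226-R, 23.4 and 27.2 CPM in RPMI-8226 and 5.76 and 6.36 CPM in NCI-BL2171. It was 2.17-fold lower in RPMI-8226-R than in RPMI-8226 (log2 fold change -1.12 ± 0.13, adjusted p = 1.99e-07), and higher than in NCI-BL2171 in both RPMI lines, by 0.94 ± 0.15 log2 units in RPMI-8226-R and by 2.06 ± 0.14 in RPMI-8226 (adjusted p = 6.88e-06 and 2.34e-11, edgeR).

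SPRY1, a Sprouty protein known as an inhibitor of receptor tyrosine kinase signalling (ENSG00000164056.11, chromosome 4, 123396795 to 123403760, plus strand), was low in every line. It was at 1.74 and 2.11 CPM in RPMI-8226-R, at 5.50 and 6.96 CPM in RPMI-8226 and at 4.33 and 6.32 CPM in NCI-BL2171. The RPMI-8226-R libraries were the lowest, and the other lines overlapped. SPRY1 was 3.22-fold lower in RPMI-8226-R than in RPMI-8226 (log2 fold change -1.69 ± 0.24, adjusted p = 3.41e-06) and 2.75-fold lower than in NCI-BL2171 (-1.46 ± 0.25, adjusted p = 1.74e-05), while RPMI-8226 over NCI-BL2171 did not pass the test (0.23 ± 0.22, adjusted p = 0.35, edgeR).

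SPRY2, a Sprouty protein that binds the ubiquitin ligase CBL and the adaptor GRB2 (ENSG00000136158.12, chromosome 13, 80335976 to 80340951, minus strand), was near the limit of detection in both RPMI lines. It had 2 and 6 reads in the RPMI-8226-R libraries, 2 and 4 reads in RPMI-8226 and 65 and 55 reads in NCI-BL2171. The RPMI lines overlapped and could not be told apart at this depth (log2 fold change of RPMI-8226-R over RPMI-8226 0.30 ± 0.83, adjusted p = 0.78, edgeR). SPRY2 passed the filter on low counts only through the NCI-BL2171 libraries and so had to differ from them. Its log2 fold change over NCI-BL2171 was -3.97 ± 0.55 in RPMI-8226-R and -4.27 ± 0.58 in RPMI-8226, values that carry no weight for the gene group. The other 9 genes were over the filter's count minimum in both RPMI lines, and of these DUSP4 and DUSP6 were over it in 1 of 2 NCI-BL2171 libraries.

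Counted in reads, the SPRED genes were higher in RPMI-8226-R than in RPMI-8226, and for SPRED1 this held per length as well. SPRED1, which carries neurofibromin to RAS at the membrane and is mutated in Legius syndrome (ENSG00000166068.13, chromosome 15, 38252326 to 38357249, plus strand), was at 14.0 and 14.2 CPM in RPMI-8226-R, at 9.11 and 7.63 CPM in RPMI-8226 and at 10.5 and 11.04 CPM in NCI-BL2171. The RPMI-8226-R libraries were the highest and the RPMI-8226 libraries the lowest, with no overlap. SPRED1 rose 1.68-fold in RPMI-8226-R over RPMI-8226 (log2 fold change 0.75 ± 0.14, adjusted p = 8.86e-05, edgeR). Its differences from NCI-BL2171 were small (log2 fold change 0.39 ± 0.14 in RPMI-8226-R and -0.36 ± 0.15 in RPMI-8226, adjusted p = 0.015 and 0.029, edgeR). Both calls were lost on the log2(TPM + 1) scale, at log2 fold changes of 0.33 and -0.42 (adjusted p = 0.15 and 0.080, limma-trend), and with a length offset, at 0.33 and -0.43 (adjusted p = 0.24 and 0.14, edgeR). Without NCI-BL2171 replicate 1 both calls were lost too (adjusted p = 0.086 and 0.058), and the RPMI-8226 call was also lost without RPMI-8226 replicate 2 (0.25) or NCI-BL2171 replicate 2 (0.11).

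SPRED2, a second SPRED protein with the same role at RAS (ENSG00000198369.10, chromosome 2, 65310851 to 65432637, minus strand), had a direction that depended on the length assigned to it. In reads it was higher in RPMI-8226-R, at 48.0 and 50.6 CPM, than in RPMI-8226, at 38.0 and 37.8 CPM, or NCI-BL2171, at 39.5 and 38.3 CPM. The log2 fold change was 0.38 ± 0.08 over RPMI-8226 (adjusted p = 0.000316) and 0.34 ± 0.08 over NCI-BL2171 (adjusted p = 0.000635, edgeR). On the TPM scale, which divides reads by transcript length, it was lower in RPMI-8226-R, at 12.7 and 15.8 TPM, than in RPMI-8226, at 22.6 and 21.1 TPM, or NCI-BL2171, at 25.8 and 22.2 TPM. RPMI-8226-R overlapped neither other line on either scale, with opposite directions. On the TPM scale RPMI-8226 and NCI-BL2171 overlapped each other.

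The deposited tables give each gene a length that can differ between libraries. For SPRED2 it was 4011 and 3641 bases in RPMI-8226-R, 1547 and 1594 bases in RPMI-8226 and 1593 and 1822 bases in NCI-BL2171. The effective length of RPMI-8226-R over RPMI-8226 was 2.62, and 219 of 20081 tested genes (1.09%) had a ratio as far from 1. With this length as an offset in edgeR, the log2 fold change of SPRED2 became -0.95 over RPMI-8226 (adjusted p = 0.000177) and -0.88 over NCI-BL2171 (adjusted p = 0.000161). GENCODE 29 lists 8 SPRED2 transcripts, the longest with 4097 bases from a first base at position 65432177 and the next with 1800 bases from position 65366650, so that the starts of the 2 lie 65527 bases apart. The files give gene totals, so the level of each transcript was not measured here.

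The RefSeq promoter table (GRCh38.p14) also has 2 SPRED2 starts, and the sequences before them are shown because the table places them, like the starts of the 2 longest GENCODE transcripts, far apart. The upstream stretch ends next to the first base, at 65432637, of a 555-base transcript, and the downstream start was not found in a GENCODE 29 transcript, so neither is tied here to the long or the shorter form. Both read 5′ to 3′ on the minus strand, and the upstream stretch stops where an annotated exon begins. A search on both strands looked for the ETS core CCGGAA, the AP-1 site TGANTCA, the CIC site TGAATGNA and, added after the sequences were seen, the TATA motif TATAAA; capitals mark a match.
SPRED2 upstream start, chr2:65432638-65432849: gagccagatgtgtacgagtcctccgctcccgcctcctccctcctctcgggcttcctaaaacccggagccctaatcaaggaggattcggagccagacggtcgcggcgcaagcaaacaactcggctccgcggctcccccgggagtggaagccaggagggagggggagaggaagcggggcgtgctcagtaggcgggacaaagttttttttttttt
SPRED2 downstream start, chr2:65366779-65367028: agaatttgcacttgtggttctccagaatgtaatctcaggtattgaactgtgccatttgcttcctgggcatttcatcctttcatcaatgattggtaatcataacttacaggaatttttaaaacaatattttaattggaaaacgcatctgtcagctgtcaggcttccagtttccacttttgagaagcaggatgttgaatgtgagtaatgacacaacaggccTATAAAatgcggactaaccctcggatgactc
The upstream stretch held none of the 4 motifs, and the downstream stretch held 1 TATAAA and none of the other 3. Among all 35116 windows of 250 bases before a RefSeq start, TATAAA was in 10.7%, CCGGAA in 14.5%, TGANTCA in 6.57% and TGAATGNA in 3.25%. Of the 10 windows in the table for 6 of the genes (SPRED1, SPRED2, SPRY1, SPRY2, SPRY4 and DUSP6), CCGGAA was in 2, a SPRY1 window and a SPRY2 window, and TGANTCA and TGAATGNA were in 0. A match is a string of letters and not a mapped site.

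**Figure D2:**
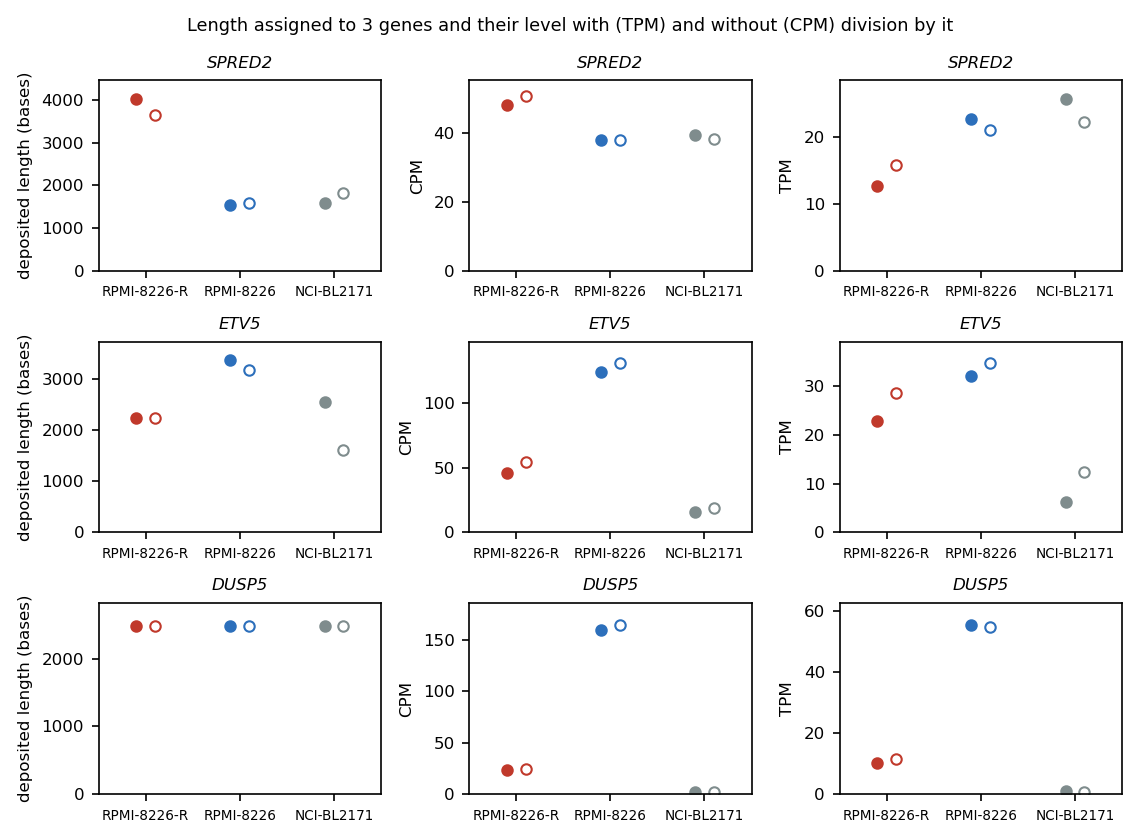
Deposited length in bases (left), level in CPM (middle) and level in TPM (right) of SPRED2, ETV5 and DUSP5 in each library of RPMI-8226-R, RPMI-8226 and NCI-BL2171; filled points are replicate 1 and open points replicate 2. SPRED2 is longer in RPMI-8226-R and changes direction between CPM and TPM, ETV5 is shorter in RPMI-8226-R than in RPMI-8226, and DUSP5 has the same length, 2477 bases, in all 6 libraries.

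Of the PEA3 factors, ETV5 moved and ETV4 did not pass the test. ETV5 (ENSG00000244405.8, chromosome 3, 186046308 to 186110318, minus strand) was at 46.3 and 54.3 CPM in RPMI-8226-R, at 124 and 131 CPM in RPMI-8226 and at 15.9 and 18.6 CPM in NCI-BL2171. The lines did not overlap. ETV5 was 2.54-fold lower in RPMI-8226-R than in RPMI-8226 (log2 fold change -1.34 ± 0.08, adjusted p = 1.24e-11), and its log2 fold change over NCI-BL2171 was 1.55 ± 0.10 in RPMI-8226-R and 2.89 ± 0.09 in RPMI-8226 (adjusted p = 2.88e-12 and 4.80e-17, edgeR).

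The length assigned to ETV5 also moved, to 2225 and 2228 bases in RPMI-8226-R, against 3363 and 3166 bases in RPMI-8226; it was 2547 and 1604 bases in NCI-BL2171. A ratio of effective lengths as far from 1 as that of RPMI-8226-R over RPMI-8226 (0.673) was seen in 7.96% of tested genes. Per length, ETV5 was at 22.8 and 28.6 TPM in RPMI-8226-R and at 32.1 and 34.9 TPM in RPMI-8226. The fall was smaller on this scale and no longer called (-0.38, adjusted p = 0.31, limma-trend on log2(TPM + 1)). In that fit the median of all tested genes also lay 0.20 higher than in the main edgeR fit. With the length offset in edgeR the fall of ETV5 was called (-0.71, adjusted p = 0.024). GENCODE 29 lists 14 ETV5 transcripts, of which the 2 longest have 4111 and 2213 bases. ETV5 overlaps DGKG on the same strand, whose reads numbered 453 and 478 in RPMI-8226-R, 165 and 166 in RPMI-8226, and 0 and 1 in NCI-BL2171.

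ETV4 (ENSG00000175832.13, chromosome 17, 43527844 to 43579620, minus strand) was at 38.7 and 36.9 CPM in RPMI-8226-R, at 36.7 and 42.2 CPM in RPMI-8226 and at 36.7 and 35.6 CPM in NCI-BL2171. In CPM all 6 libraries lay within this narrow range, and RPMI-8226-R overlapped RPMI-8226. In TPM RPMI-8226-R was at 20.8 and 20.3, RPMI-8226 at 14.4 and 18.3 and NCI-BL2171 at 18.7 and 17.1. On that scale RPMI-8226-R overlapped neither other line. No comparison passed the test: the log2 fold change was -0.06 ± 0.09 for RPMI-8226-R over RPMI-8226, 0.07 ± 0.09 for RPMI-8226-R over NCI-BL2171 and 0.13 ± 0.09 for RPMI-8226 over NCI-BL2171 (adjusted p = 0.57, 0.52 and 0.20, edgeR). ETV4 overlaps DHX8 on the opposite strand, which had 872 to 1488 reads per library. Whether the counting used strand is not given in the sources used here, so reads of the overlapping stretch cannot be told apart. DUSP6, SPRY4 and SPRED2 also overlap other annotated genes, with at most 11 reads in any library.

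**Figure D3:**
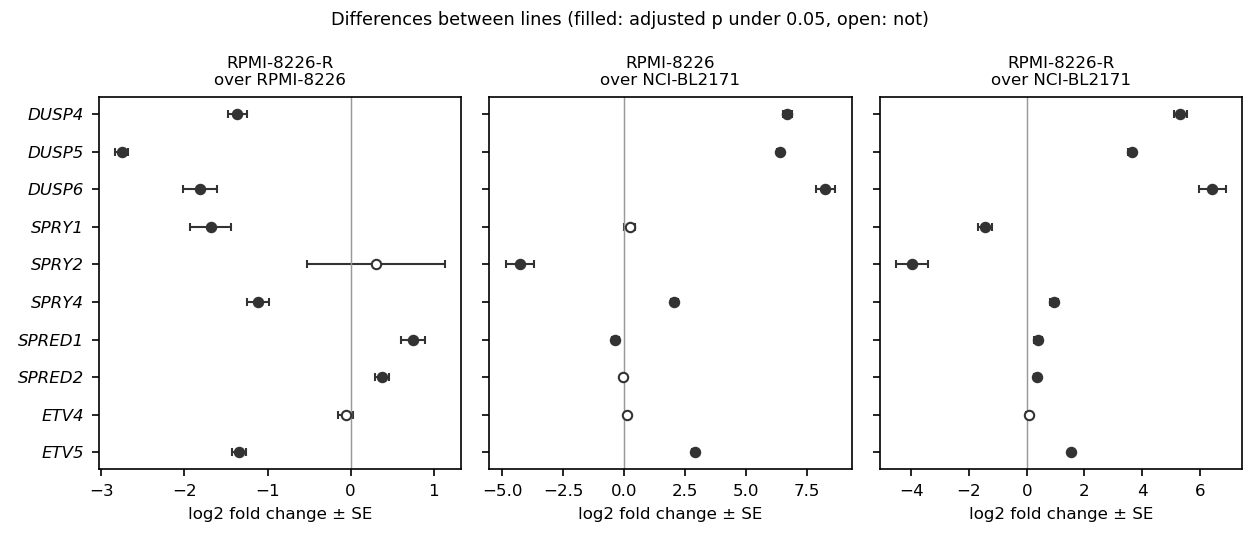
Log2 fold change ± SE (edgeR) of the 10 genes for RPMI-8226-R over RPMI-8226, RPMI-8226 over NCI-BL2171 and RPMI-8226-R over NCI-BL2171, on a separate scale in each panel; filled points passed the adjusted p of 0.05. In the left panel 6 genes lie below 0 and filled, from -2.76 for DUSP5 to -1.12 for SPRY4, and SPRED1 and SPRED2 lie above 0; SPRED2 lies below 0 on the TPM scale.

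Ordered by TPM, which allows levels of different genes to be compared, the genes ranked differently in each line. In RPMI-8226-R the order was ETV5 (25.7 TPM), ETV4 (20.6), SPRED2 (14.3), DUSP5 (10.8), DUSP6 (8.69), SPRED1 (3.08), DUSP4 (2.73), SPRY4 (2.60), SPRY1 (1.30) and SPRY2 (0.077), and only the neighbours DUSP4 and SPRY4 overlapped between libraries. In RPMI-8226 DUSP5 led with 55.0 TPM, before ETV5 (33.5), DUSP6 (24.3), SPRED2 (21.9), ETV4 (16.4), DUSP4 (6.10), SPRY4 (4.40), SPRY1 (3.24), SPRED1 (1.46) and SPRY2 (0.043), and only DUSP6 and SPRED2 overlapped. In NCI-BL2171 SPRED2 (23.99 TPM), ETV4 (17.9) and ETV5 (9.32) led, SPRY1 (3.46), SPRED1 (2.25), SPRY4 (1.25), SPRY2 (1.11) and DUSP5 (0.771) followed, and DUSP6 (0.17) and DUSP4 (0.061) came last. There, SPRY4 overlapped SPRY2 and DUSP6 overlapped DUSP4. Summed over the 10 genes, the level was 83.5 and 96.0 TPM in RPMI-8226-R, 161 and 171 TPM in RPMI-8226 and 58.8 and 61.8 TPM in NCI-BL2171.

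Against NCI-BL2171, RPMI-8226-R had 7 of the 10 genes higher (DUSP4, DUSP5, DUSP6, SPRY4, SPRED1, SPRED2 and ETV5), 2 lower (SPRY1 and SPRY2) and 1 not called (ETV4). RPMI-8226 had 5 higher (DUSP4, DUSP5, DUSP6, SPRY4 and ETV5), 2 lower (SPRY2 and SPRED1) and 3 not called (SPRY1, SPRED2 and ETV4); SPRED2 was at -0.04 ± 0.08 (adjusted p = 0.69, edgeR). In both counts SPRY2 had to differ, since it passed the filter through NCI-BL2171 alone. On the log2(TPM + 1) scale and with the length offset RPMI-8226-R had 5 genes higher and 3 lower, with SPRED1 no longer called and SPRED2 called lower. The libraries did not overlap in CPM for 10 of the 10 genes between RPMI-8226-R and NCI-BL2171, beside 87.3% of tested genes, and for 9 of 10 between RPMI-8226 and NCI-BL2171, beside 88.4%.

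In the cascade that the feedback genes answer to, 4 of 10 core genes fell and 1 rose in RPMI-8226-R over RPMI-8226. The other 5 did not pass the test. Of all tested genes, 37.2% fell and 28.5% rose. The median log2 fold change of the core genes was -0.13. BRAF fell (24.6 CPM in RPMI-8226-R and 43.8 CPM in RPMI-8226, log2 fold change -0.83 ± 0.09), as did MAP2K1, which encodes MEK1 (-0.54 ± 0.06), and MAPK3, which encodes ERK1 (-0.27 ± 0.07). The adjusted p of these 3 genes lay between 5.84e-08 and 0.00139 (edgeR). The effective length of BRAF also differed, at a mean of 4806 bases in RPMI-8226-R and 2237 in RPMI-8226. Its fall was larger per length, at a mean of 5.42 TPM in RPMI-8226-R and 15.8 TPM in RPMI-8226. Among the genes that did not pass were NRAS (0.07 ± 0.07), HRAS (-0.05 ± 0.12), ARAF (-0.19 ± 0.08) and MAP2K2 (-0.08 ± 0.07). ARAF lay next to the threshold (adjusted p = 0.054, edgeR) and was called lower in 7 of 16 other fits, among them the one with the length offset (-0.34, adjusted p = 0.014) and the one with the replicate block (-0.19, adjusted p = 0.045). The TPM fits, in which the median of all genes lies 0.20 higher or more, gave 4 higher and 2 lower here, with MAPK3 at 0.06 and MAP2K2 at 0.32.

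Against NCI-BL2171, NRAS, HRAS, BRAF and MAP2K2 were lower and ARAF, MAP2K1 and MAPK3 higher in both RPMI lines. ARAF in RPMI-8226-R (0.25 ± 0.09) lost its call with upper-quartile scaling (0.18, adjusted p = 0.069), with the length offset (0.21, adjusted p = 0.077) and without NCI-BL2171 replicate 2 (0.13, adjusted p = 0.21, edgeR), and HRAS in RPMI-8226 (-0.39 ± 0.12) without NCI-BL2171 replicate 1 (-0.34, adjusted p = 0.054).

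DUSP4, DUSP6, SPRY2, SPRY4, ETV4 and ETV5 belong to a published 10-gene score of MAPK pathway activity, and the other 4 genes of that score are PHLDA1, CCND1, EPHA2 and EPHA4. All 3 that could be tested were called lower in RPMI-8226-R. EPHA2 passed the filter on low counts only through RPMI-8226 and so had to be lower. Its fall carries no weight for the score, which leaves PHLDA1 and CCND1. PHLDA1, induced by ERK, was at 8.35 and 7.00 CPM in RPMI-8226-R and at 24.4 and 25.3 CPM in RPMI-8226 (log2 fold change -1.70 ± 0.13). CCND1, which encodes cyclin D1, was at 20.5 and 25.4 CPM in RPMI-8226-R and at 39.3 and 37.9 CPM in RPMI-8226 (-0.75 ± 0.11). The ephrin receptor gene EPHA2 had 5 reads over the RPMI-8226-R libraries and 136 over RPMI-8226 (-4.79 ± 0.62, adjusted p = 6.88e-07, edgeR). EPHA4 had at most 4 reads in a line and was not tested. Over NCI-BL2171, CCND1 was higher in RPMI-8226-R (5.40 ± 0.20) and RPMI-8226 (6.15 ± 0.19), while PHLDA1 passed the test for RPMI-8226 (1.44 ± 0.13) and not for RPMI-8226-R (-0.25 ± 0.14, adjusted p = 0.11).

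Of 10 other dual specificity phosphatases 7 fell and 3 rose in RPMI-8226-R over RPMI-8226, beside 37.2% and 28.5% of all tested genes. Their median log2 fold change was -1.58. DUSP1, a nuclear phosphatase of p38, JNK and ERK, was at 6.75 and 8.35 CPM in RPMI-8226-R and at 140.0 and 163 CPM in RPMI-8226 (-4.32 ± 0.11, adjusted p = 4.97e-18). DUSP9, an ERK phosphatase, fell with few reads (-4.22 ± 0.39), while DUSP7, a cytoplasmic ERK phosphatase related to DUSP6, rose to 42.0 and 38.8 CPM in RPMI-8226-R, against 12.1 and 14.4 CPM in RPMI-8226 (1.61 ± 0.11, adjusted p = 5.74e-11, edgeR), and DUSP14 rose by 0.73 ± 0.09. Of the 3 close relatives of the feedback genes, SPRY3 (-4.14 ± 0.53) and the PEA3 factor ETV1 (-1.41 ± 0.15) fell, and SPRED3, with 20 reads in RPMI-8226-R and 11 in RPMI-8226, did not pass the test. SPRY3 had 8 reads over the RPMI-8226-R libraries and 137 over RPMI-8226. It passed the filter on low counts only through RPMI-8226 and so had to be lower in RPMI-8226-R.

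Further genes linked to ERK split; they include genes induced by it and the ETS factors ELK1, ELK3 and ELK4, on which it acts. Of 13, 7 fell, 3 rose and 3 did not pass, with a median log2 fold change of -1.57. Among all tested genes 37.2% fell and 28.5% rose. The immediate early genes EGR1 and FOS, which encode transcription factors, fell furthest: EGR1 was at 0.742 and 1.46 CPM in RPMI-8226-R and at 37.7 and 50.0 CPM in RPMI-8226 (-5.30 ± 0.21, adjusted p = 2.14e-12), and FOS fell by 5.14 ± 0.18. MYC, which encodes a growth-promoting transcription factor, moved the other way, at 996 and 1033 CPM in RPMI-8226-R and 208 and 213 CPM in RPMI-8226 (2.27 ± 0.06, adjusted p = 2.97e-17, edgeR), and SRF, the serum response factor, rose by 1.10 ± 0.09.

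**Figure D4:**
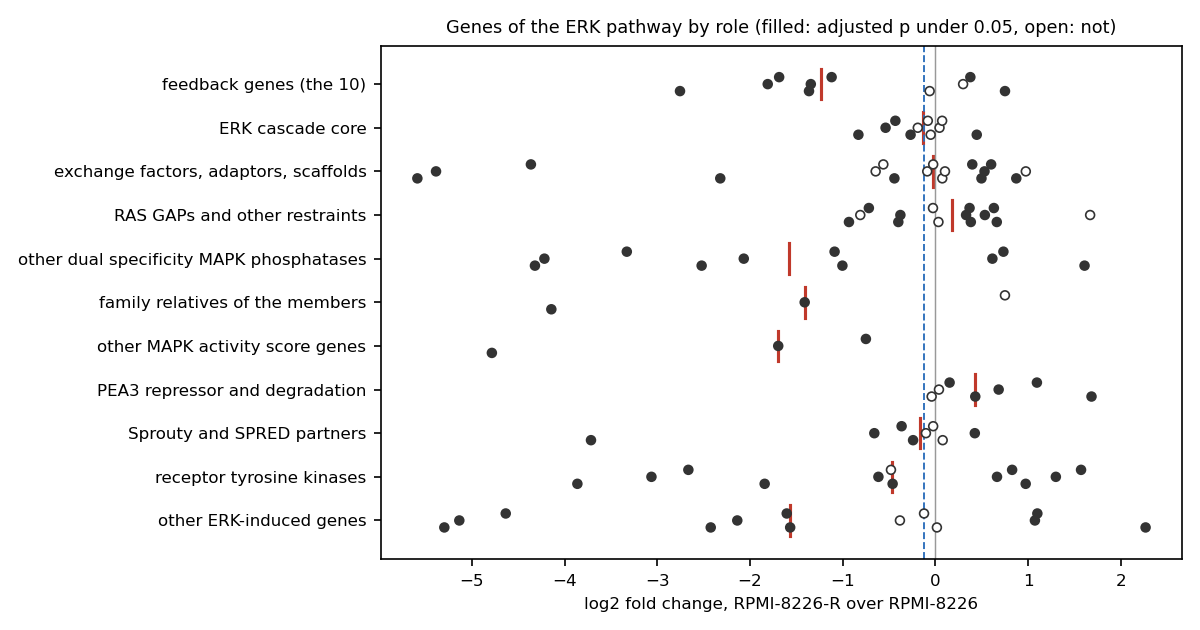
Log2 fold change of RPMI-8226-R over RPMI-8226 (edgeR) for every tested gene of the feedback genes and 10 lists of the ERK pathway; filled points passed the adjusted p of 0.05, red bars are list medians, the dashed line is the median of all tested genes (-0.12) and the grey line is 0. Medians are -1.23 for the feedback genes, -1.58 for the other phosphatases and -1.57 for genes labelled ERK-induced. The family relatives (-1.41) and the activity score genes (-1.70) have 3 tested genes each. Their medians include SPRY3 and EPHA2 and carry no weight. Medians of the remaining lists lie between -0.47 and 0.43. EPHA2, SPRY3 and CSF1R passed the filter through RPMI-8226 alone and so had to lie below 0.

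Among regulators of the cascade, movement went in both directions, as it did among all tested genes (28.5% rose and 37.2% fell). Of 17 tested exchange factors, adaptors and scaffolds, 5 rose and 5 fell: SOS1, a RAS exchange factor, rose by 0.87 ± 0.10 (not called with the length offset) and the adaptor SHC1 by 0.60 ± 0.06, while RASGRP3, a RAS exchange factor of lymphocytes, had 3 reads over the RPMI-8226-R libraries and 147 over RPMI-8226. RASGRP4 had 0 reads in RPMI-8226-R and 10 in RPMI-8226, at least 1.77-fold lower against a floor of 3 counts per library. Of 14 RAS inactivators and other restraints, 6 rose, among them RASA2 (0.63 ± 0.12), and 4 fell, among them ERRFI1 (-0.93 ± 0.17), an inhibitor of the EGF receptor, and RASA1 (-0.72 ± 0.08). RASA1 was not called on the TPM scale.

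Of 12 tested receptor tyrosine kinases 5 rose and 6 fell in RPMI-8226-R over RPMI-8226, beside 28.5% and 37.2% of all tested genes. KIT, the receptor for stem cell factor (1.57 ± 0.26), and FGFR2 (1.30 ± 0.18) rose, and MET (-3.86 ± 0.62) and CSF1R (-3.06 ± 0.80), receptors for hepatocyte growth factor and for a macrophage growth factor, fell, with 4 and 5 reads in RPMI-8226-R, against 58 and 41 in RPMI-8226. Neither was called on the log2(TPM + 1) scale. CSF1R passed the filter on low counts only through RPMI-8226 and so had to be lower in RPMI-8226-R. CSF1R lost its call without RPMI-8226-R replicate 2 (-2.04, adjusted p = 0.054, edgeR). EGFR had 0 reads in both RPMI lines, which allows up to 3 counts per library.

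The genes that act on the PEA3 factors were the list in which none fell. Of 7, 5 rose and 2 did not pass, with a median log2 fold change of 0.43. Among all tested genes 28.5% rose and 37.2% fell. CUL4A, part of a ubiquitin ligase, rose to 107 and 99.4 CPM in RPMI-8226-R, against 32.9 and 31.1 CPM in RPMI-8226 (1.69 ± 0.08, adjusted p = 5.65e-14), and CIC, the repressor of ETV4 and ETV5 that ERK inactivates, to 49.2 and 56.6 CPM in RPMI-8226-R, against 25.3 and 24.2 CPM in RPMI-8226 (1.10 ± 0.09, adjusted p = 1.19e-09, edgeR). With the length offset 1 gene of the list was called lower. Of 8 partners of the Sprouty and SPRED proteins, DYRK1A rose (0.43 ± 0.08) and 4 fell, among them CBLB (-3.72 ± 0.30) and SIAH2 (-0.66 ± 0.06), both ubiquitin ligases.

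The genes most like the most abundant feedback gene of each family were ranked by the root mean square difference of centred log2(CPM + 1) over the 6 libraries, among 12404 genes. DUSP5 was most like HAPLN3 (0.082), C1orf21 (0.083) and LEFTY2 (0.085): HAPLN3 averaged 18.3 ± 0.54 CPM in RPMI-8226-R, 139 ± 0.50 in RPMI-8226 and 1.21 ± 0.11 in NCI-BL2171 (SD, n = 2). SPRED2 was most like CNOT2 (0.026), HNRNPUL1 (0.033) and KHSRP (0.040). That match was made in CPM, where SPRED2 was highest in RPMI-8226-R, while on the TPM scale SPRED2 was lowest there. ETV5 was most like FOXO3 (0.067), TCTN1 (0.10) and GATM (0.12): FOXO3 averaged 114 ± 10.0 CPM in RPMI-8226-R, 314 ± 10.5 in RPMI-8226 and 43.8 ± 2.28 in NCI-BL2171 (SD, n = 2). With 3 lines, such likeness rests on 3 levels.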

How the data were processed

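The authors deposited, per library, each gene's estimated count of reads, its TPM value, and its length and effective length, another deposited unit in bases, per the file headers. Per the submitters' processing notes the build was GRCh38.p13; which quantifier and annotation were used, and whether strand was counted, is not given in the sources used here. The Y copies of 46 pseudoautosomal genes were summed with the X copies (61498 genes remained). Rounded counts entered edgeR 4.0.16 (R 4.3.3; TMM, filterByExpr with minimum count 10 and minimum total 15, robust quasi-likelihood F test, two-sided, 6 libraries, 3 residual degrees of freedom, Benjamini-Hochberg over 20081 genes). Floors of 3 counts cover counting error only; standard errors come from the fit and include the spread between libraries. Alternatives were DESeq2 1.42.0, limma 3.58.1 on log2(TPM + pseudocount), other filters and scalings, an effective-length offset, a replicate block, and leaving out each library. Genes were named by a rule: all 10 genes, all genes of the cascade core and the activity score, and of other lists the 2 largest rises and falls; SPRED3, EGFR and the overlapping genes were named outside it. A few genes covered by this rule are not reported here. The members and lists were chosen with earlier results of these data known. Positions come from GENCODE 29 and promoter sequences from RefSeq (GRCh38.p14). Tested on simulated data (19194 genes) for RPMI-8226-R and RPMI-8226, the procedure recovered 67.2% of 1.5-fold, 83.6% of 2-fold and 97.0% of 4-fold changes, with 7 of 172 calls of unchanged genes. Far fewer genes were called there than in the real comparison (65.6% of tested genes), so these rates need not hold for it.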

Additional observations from a re-analysis of the deposited data

How the results depend on the processing

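Each comparison was refitted under 10 other settings and without each library in turn. The falls of DUSP4, DUSP5, SPRY1 and SPRY4 and the rise of SPRED1 in RPMI-8226-R over RPMI-8226 were called in all of them. On the TPM scale (log2(TPM + 1), log2(TPM + 0.1), and the first with a mean TPM of at least 1) SPRED2 reversed to -0.59, -0.62 and -0.59 over RPMI-8226 and to -0.71, -0.75 and -0.71 over NCI-BL2171, MAP2K2 to 0.32, 0.32 and 0.32 and MAPK3 to 0.059, 0.059 and 0.059 over RPMI-8226. With the length offset SPRED2 reversed to -0.95 over RPMI-8226 and -0.88 over NCI-BL2171. SPRED2's reversals follow the longer length that these settings divide by; for MAP2K2 and MAPK3 the cause was not tested. The median of all genes for RPMI-8226-R over RPMI-8226 lay 0.20, 0.24 and 0.31 higher on the TPM scale. The feedback genes called higher were then 1, 1 and 1, and 1 with the offset, in place of 2. All genes called lower were 4557, 4609 and 3583 in place of 7461, beside 7030, 6860 and 6503 called higher in place of 5716. For RPMI-8226 over NCI-BL2171 the feedback genes called lower were 1 with a mean CPM of at least 1, 1, 1 and 0 on the TPM scale and 1 with the offset, in place of 2, and from 1 to 2 without a library; genes called higher with a mean TPM of at least 1 were 5045, beside 6537 lower, in place of 8248 and 7153. For RPMI-8226-R over NCI-BL2171 a mean CPM of at least 1, which removes SPRY2, left 1 called lower in place of 2; the TPM fits gave 5, 5 and 5 higher and 3, 3 and 2 lower, and the offset 5 and 3, in place of 7 and 2. RASA1 lost its call over RPMI-8226 in all 3 TPM fits. In the lists of regulators the log2(TPM + 1) fit called 2 adaptors, 2 restraints and 1 receptor lower in place of 5, 4 and 6, and 2 Sprouty partners higher and 2 lower in place of 1 and 4; the offset called 3 adaptors, 3 restraints and 3 receptors higher in place of 5, 6 and 5. Without RPMI-8226 replicate 2, 2 partners were called lower.

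Little pairing by replicate number was seen: deviations of same-numbered libraries correlated at 0.054, 0.047 and 0.052 over 20081 genes. With genes of few reads included, this check cannot show that no batch was shared. The replicate numbers are not said to mark a batch. The deposited tables number the NCI-BL2171 libraries the other way round from the titles, which were used here; exchanging them would turn the sign of the 0.047 and 0.052, and the block was not run that way. With the replicate block, RPMI-8226-R over RPMI-8226 had 5665 genes higher and 7380 lower, with 2 and 6 of the feedback genes, the same counts as without it; of the genes named, ARAF over RPMI-8226 alone changed its call (-0.19, adjusted p = 0.045, edgeR). At 2 libraries per line SPRY2 in the RPMI lines and DUSP4 and DUSP6 in NCI-BL2171 rest on at most 10 reads a library.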
